A study of Mus musculus with 24 samples.

Results

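The contrast described here set the NeuN+ (neuronal) nuclei of DKO mice, which were bred to lack Ogg1 and Mutyh together, against the NeuN+ nuclei of Ogg1-/- mice, which lack Ogg1 alone. Its members were chosen from the sample labels: 3 libraries labelled DKO and 3 labelled Ogg1-/-, that is 6 of the 24 RNA-seq libraries of the series. Both groups were labelled as Ogg1-null, so by their labels they differ in Mutyh. The paper obtained DKO mice by crossing the single knockouts. Any other difference between the mouse lines goes with the labelled genotype and cannot be told apart from the labelled loss of Mutyh.

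Ogg1 and Mutyh are DNA glycosylases that act on the same lesion, 8-oxoguanine, the most studied product of guanine oxidation. Ogg1 removes 8-oxoguanine that sits opposite cytosine, and Mutyh removes the adenine that a polymerase has wrongly placed opposite 8-oxoguanine, so that together they prevent G-to-T changes. Each leaves an abasic site, which the later enzymes of base excision repair cut, fill and seal.

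The mice were males on a C57BL/6N background, 6 months old, kept in standard cages without treatment, and the 4 genotypes were WT, Mutyh-/-, Ogg1-/- and DKO. Nuclei were isolated from frozen hippocampus, stained for the neuronal protein NeuN and sorted into NeuN+ and NeuN- fractions, and nuclear RNA was turned into sequencing libraries with a stranded total RNA kit, 3 libraries per genotype and fraction. The paper's text and its sorting methods give different numbers for the animals pooled, so whether a library stands for its own animals is unclear, and p-values here measure the spread between these libraries. NeuN+ and NeuN- nuclei were sequenced on different lanes, so lane and fraction cannot be told apart in comparisons of the fractions, whereas the DKO and Ogg1-/- NeuN+ libraries shared their lanes.

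The values were counts of sequenced fragments assigned to genes. The Ogg1-/- NeuN+ libraries held 66147375, 96192142 and 87328859 counts in replicates 1, 2 and 3, and the DKO NeuN+ libraries held 71291148, 76704502 and 81093906. The depths of the groups overlapped. Over all 24 libraries the total ran from 56563586 to 96192142. Levels below are CPM, a gene's count as a share of its library's total after scaling between libraries, and differences are log2 fold changes (log2FC) of DKO over Ogg1-/-, so that a value above 0 means higher RNA in DKO. A gene is called a differentially expressed gene (DEG) where its adjusted p was under 0.05 and its absolute log2FC above 0.5, with p-values from the edgeR quasi-likelihood test adjusted by the Benjamini-Hochberg method over all genes tested. Per-library values are given in the order of replicates 1, 2 and 3.

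The labels were checked on the genes they name. Mutyh RNA went against the label: it stood at 7.74, 8.39 and 11.1 CPM in the libraries labelled DKO and at 1.29, 1.04 and 1.27 CPM in the Ogg1-/- libraries. All 3 DKO libraries lay above all 3 Ogg1-/- libraries, and the same held in the libraries labelled Mutyh-/-, with 10.6, 10.7 and 9.06 CPM, against WT with 1.05, 1.18 and 1.18 CPM. Counts summed over a gene do not show which exons were read. The log2FC of Mutyh was 2.93 (SE 0.142, adjusted p 9.45e-09, higher in 3 of 3 libraries), and it kept an adjusted p under 0.05 without any one of the libraries. In this text a library labelled DKO means the labelled genotype, and no direction below is read as the effect of less Mutyh RNA.

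Ogg1 RNA did not separate the groups. It was 3.03, 2.96 and 3.21 CPM in DKO and 3.34, 3.16 and 2.95 CPM in Ogg1-/-, and the ranges overlapped (log2FC -0.04, SE 0.113, adjusted p 1.00). The libraries labelled WT had a mean of 3.04 ± 0.477 CPM (SD, n = 3) and those labelled Mutyh-/- had 2.77 ± 0.191 CPM (SD, n = 3), so RNA that maps to Ogg1 was present at a like level in all 4 genotypes, and the absence of Ogg1 in these libraries rests on the labels.

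**Figure D1:**
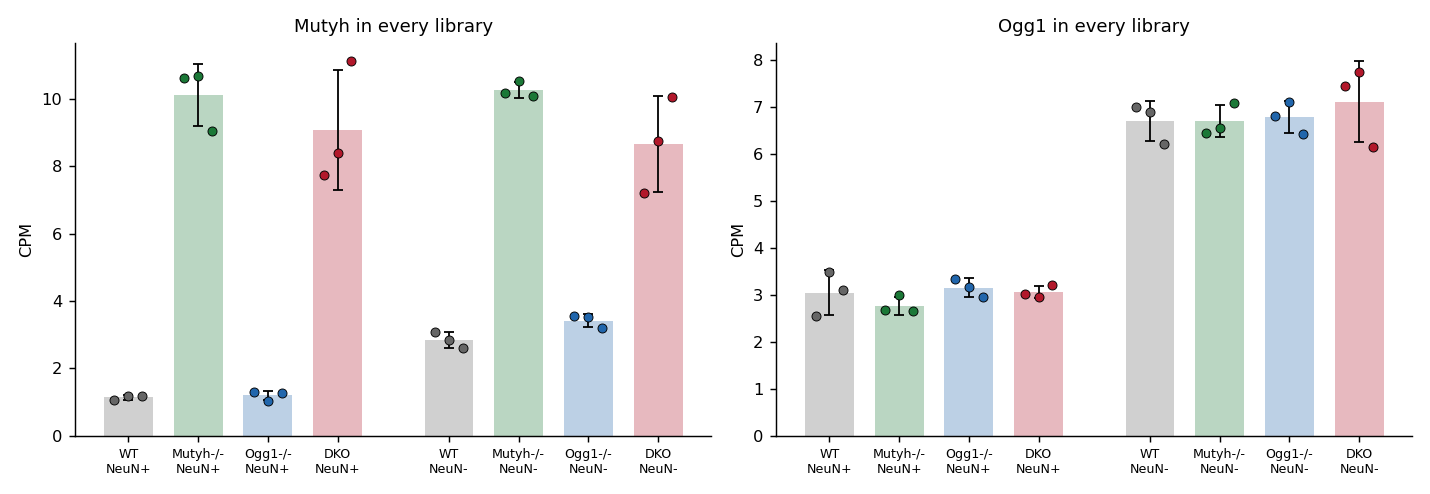
CPM of Mutyh and Ogg1 in each of the 24 libraries, with bars at the group mean and error bars of 1 SD. Mutyh stands higher in the libraries labelled Mutyh-/- and DKO than in those labelled WT and Ogg1-/-, while the Ogg1 levels of the NeuN+ groups overlap.

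The promoter of Mutyh is shown because its RNA is the labelled target and went against the label. The window covers 250 bases before and 50 after the annotated start, at chr4:116807484-116807783 on the plus strand, from RefSeq on GRCm38.p6, and capitals mark the motif matches found on either strand.
Mutyh: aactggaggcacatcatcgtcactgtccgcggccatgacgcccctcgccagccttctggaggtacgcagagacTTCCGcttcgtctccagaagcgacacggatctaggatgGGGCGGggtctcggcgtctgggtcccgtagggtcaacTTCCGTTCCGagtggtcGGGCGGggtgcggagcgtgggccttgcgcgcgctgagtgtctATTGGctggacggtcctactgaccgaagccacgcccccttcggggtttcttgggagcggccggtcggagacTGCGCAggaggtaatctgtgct
The motifs searched on both strands were the GC box with the letters GGGCGG, the CCAAT box, the TATA box with the letters TATAAA, the core of ETS factor sites with the letters TTCCG, and the core of NRF1 sites with the letters TGCGCA. Mutyh had 2 matches of GGGCGG, which occurs in 35.7% of the 32851 promoter windows of the reference, 3 of TTCCG (29.9% of windows), 1 of CCAAT, read on the reverse strand (37.4%), 1 of TGCGCA (7.76%) and 0 of TATAAA (13.6%). The matches are descriptions of the letters. The window of Toe1, a gene read from the other strand, shares 274 of the same bases. Toe1 RNA was 4.46, 5.48 and 6.14 CPM in DKO and 3.79, 3.48 and 3.99 CPM in Ogg1-/-, so the groups did not overlap, but its log2FC of 0.52 had an adjusted p of 0.271. That p ran from 0.0290 to 0.847 over the alternatives tried and fell under 0.05 without DKO replicate 1, with no filter on low counts and by a likelihood ratio test. The gene on the far side of Mutyh, Hpdl, had a log2FC of -0.35 (adjusted p 1.00).

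Some libraries stood apart, and this bears on what follows. Ogg1-/- NeuN+ replicate 3 had counts in 42232 genes, against 39411 and 39692 in the other Ogg1-/- libraries and 38959, 38634 and 39148 in DKO. It had 272 genes with at least 5 counts where each of the other 11 NeuN+ libraries had at most 2, and for those other libraries the number of such genes ran from 6 to 45. Of the 272, 81 lie on the Y chromosome and 36 on the X, 0 had enough counts to be tested, and together they held 2130 counts, 0.00244% of the library. Among the tested genes, 4 were at least 4-fold higher in this library than in both other Ogg1-/- libraries and 2 at least 4-fold lower, counting only genes at 1 CPM or more in the higher library or libraries. Pola2, a subunit of DNA polymerase alpha, was 4.06, 4.24 and 20.01 CPM in Ogg1-/-.

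DKO NeuN+ replicate 3 stood apart in other genes, with 3 tested genes at least 4-fold above and 3 at least 4-fold below both other DKO libraries at the same limit of 1 CPM, while replicates 1 and 2 had 1 such gene each. These genes were singled out after their values were seen. Loxl2, which encodes an enzyme that cross-links collagen, was 0.394, 0.579 and 34.1 CPM in DKO and 0.675, 0.587 and 0.867 CPM in Ogg1-/-. Its neighbour Gm21451 was 2.30, 2.03 and 39.8 CPM in DKO. In the libraries labelled Mutyh-/- Loxl2 was 126, 91.8 and 136 CPM. DKO replicate 3 thus lay between the other DKO libraries and the Mutyh-/- libraries. Smok2a, a kinase gene, was 4.25, 2.54 and 0.135 CPM in DKO and 0.210, 0.136 and 0.237 CPM in Ogg1-/-, so here replicate 3 lay with Ogg1-/- while the other DKO libraries were high. In the NeuN- nuclei of the replicates with the same numbers, Loxl2 was 4.42, 5.31 and 68.4 CPM and Smok2a was 3.82, 1.84 and 0.243 CPM, again with replicate 3 apart in both genes. Gm40884 had 0.113, 0.158 and 37.8 CPM in DKO NeuN+, and there the NeuN- library of DKO replicate 3, at 0.276 CPM, was low. None of Loxl2, Gm21451, Smok2a and Gm40884 passed the adjusted threshold (log2FC 4.05, 2.41, 3.56 and 6.01, adjusted p 0.563, 0.798, 0.0982 and 0.355). Counts with and without these libraries are given below.

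The sort was checked on marker genes. In DKO the summed CPM of 8 neuronal markers averaged 5009 in NeuN+ and 647 in NeuN- nuclei. That of 5 oligodendrocyte markers was 114 and 5660, and that of 6 astrocyte markers 267 and 3873. Microglial markers, of which 4 of 5 were tested in NeuN+ nuclei, summed to 79.7 and 556. Each sum covers the genes tested in its fraction. Glial RNA was therefore low but present in the NeuN+ libraries. In bulk nuclei fewer cells of a type and less RNA per cell cannot be told apart. Over 16 library measures, 3 had groups that did not overlap, each with a two-sided exact permutation p of 0.1, the smallest that 3 against 3 allows, and 0.533 after adjustment over the 16. They were the number of genes with counts given above, the share of counts in pseudogenes and the summed interneuron markers. Pseudogenes took 0.848%, 0.845% and 0.835% of counts in DKO and 0.935%, 0.931% and 0.927% in Ogg1-/-. Interneuron markers summed to 1139, 1162 and 1119 CPM in DKO and to 1186, 1224 and 1167 CPM in Ogg1-/-. The DKO libraries were the lower in each of the 3 measures, and the part of these measures in the results below was not tested.

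Across 30132 genes tested, 65 were DEGs, 0.216% of those tested, of which 16 were higher in DKO (0.0531%) and 49 lower (0.163%). At an adjusted p under 0.05 with no limit on the fold there were 76 genes (0.252%), and at an unadjusted p under 0.05 there were 1285 (4.26%), 444 of them higher and 841 lower. The 3 DKO and 3 Ogg1-/- libraries did not overlap in 2875 genes (9.54%), and in all 65 DEGs. The median log2FC over all genes was 0.0006, with 15143 genes above 0 (50.3%). Among the 65, the DKO library nearest to the Ogg1-/- mean was replicate 3 in 36, replicate 1 in 20 and replicate 2 in 9. Without DKO replicate 3 there were 73 DEGs, 58 of them among the 65, and 26 were higher. Without Ogg1-/- replicate 3 there were 57, of which 54 were among the 65.

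The DEGs were gathered in a few places. By position, 44 of the 65 lie on chromosome 4, of 1640 genes tested there, and 29 of these 44 lie between 41 and 44 Mb, where 113 genes were tested (25.7%), all 29 lower in DKO. A further 14 lie within 10 Mb of Mutyh, of 334 genes tested (4.19%), 5 higher and 9 lower. Another place was chromosome 14 between 72 and 78 Mb, with 4 DEGs of 61 genes tested, 3 higher and 1 lower. Within 10 Mb of Ogg1 there were 0 DEGs among 224 genes tested. Elsewhere there were 15 among 29039 genes tested (8 higher and 7 lower), and 3 DEGs, Gm10599, Gm50470 and BX666061.1, had no position in the annotation. The bounds of the chromosome 4 stretch and of the chromosome 14 stretch were drawn after the values were seen. Of the 62 DEGs with a position, 37 were protein-coding, 10 pseudogenes and 13 long noncoding RNAs.

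Leaving out any 1 of the 6 libraries gave 27 to 31 DEGs between 41 and 44 Mb of chromosome 4, 12 to 14 near Mutyh and 3 to 5 on chromosome 14. The number elsewhere moved more. It was 7 without DKO replicate 2, 22 without DKO replicate 3, 10 without Ogg1-/- replicate 2 or replicate 3, 11 without Ogg1-/- replicate 1 and 21 without DKO replicate 1. DEGs outside the 3 clusters thus rested on single libraries more than those inside them did.

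**Figure D2:**
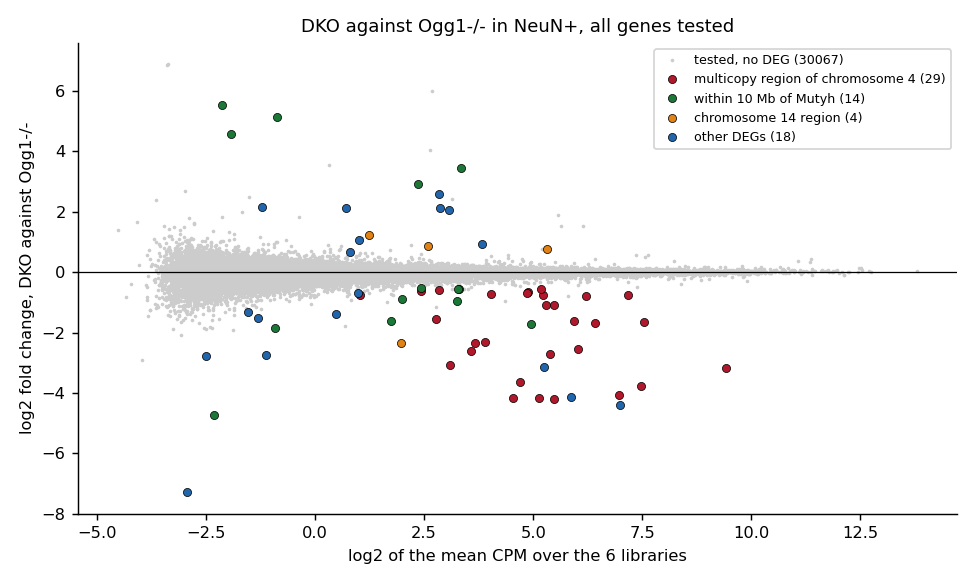
Log2FC of DKO over Ogg1-/- in NeuN+ nuclei against mean level for the 30132 genes tested, with the 65 DEGs coloured by place. The 29 DEGs between 41 and 44 Mb of chromosome 4 all lie below 0, and the 14 near Mutyh lie on both sides.

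Between 41 and 44 Mb, chromosome 4 of the reference holds many near-identical copies of a few genes, among them Ccl21 chemokine genes (ligands of the receptor Ccr7), Il11ra2 (an interleukin 11 receptor gene) and members of the Fam205 family. The summed level of the 29 DEGs there was 698, 702 and 820 CPM in DKO and 3325, 3547 and 3372 CPM in Ogg1-/-. All DKO libraries were low and all Ogg1-/- libraries high. The mean was 740 ± 69.1 CPM in DKO and 3415 ± 117 CPM in Ogg1-/- (SD, n = 3), a 4.62-fold difference that ran from 4.49 to 4.88 on leaving out 1 DKO library. In WT the sum was 626, 609 and 654 CPM and in Mutyh-/- 1279, 1336 and 1256 CPM. The order of the means was thus WT, DKO, Mutyh-/- and Ogg1-/-, and no libraries of neighbouring genotypes overlapped. DKO lay nearer to WT than Ogg1-/- did. Because the genes entered this sum as DEGs of the contrast, its difference between DKO and Ogg1-/- is a description.

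**Figure D3:**
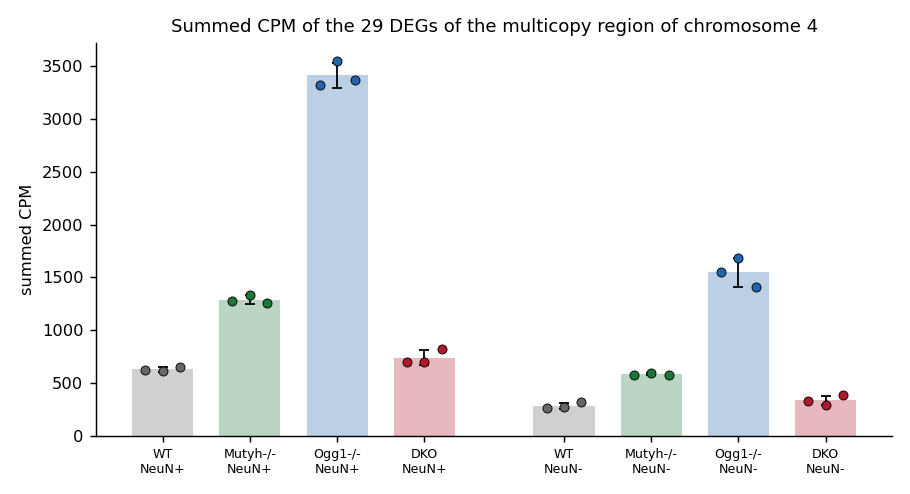
Summed CPM of the 29 DEGs on chromosome 4 between 41 and 44 Mb in each of the 24 libraries, with bars at the group mean and error bars of 1 SD. The Ogg1-/- libraries stand highest in NeuN+ and in NeuN- nuclei, and the DKO libraries lie near WT.

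The 10 lower DEGs with the smallest p all lie in this stretch. Gm13307 was 97.4, 84.9 and 85.6 CPM in DKO and 269, 291 and 286 CPM in Ogg1-/-. Gm21093 was 28.2, 28.5 and 33.4 CPM in DKO and 92.6, 91.4 and 94.3 CPM in Ogg1-/-. Gm13303 was 10.02, 9.81 and 13.5 CPM in DKO and 70.3, 70.4 and 76.2 CPM in Ogg1-/-. In each of the 3 genes the replicates were close together and the groups far apart, with log2FC of -1.66 (SE 0.0584), -1.63 (SE 0.0600) and -2.70 (SE 0.103) and adjusted p of 7.17e-10, 7.17e-10 and 8.09e-10. Gm3883 was 35.7, 43.0 and 43.2 CPM in DKO and 129, 136 and 129 CPM in Ogg1-/- (log2FC -1.69, adjusted p 1.09e-09). Gm17167, the most abundant of the 10, was 110.3, 116 and 186 CPM in DKO and 1207, 1314 and 1183 CPM in Ogg1-/- (log2FC -3.16, SE 0.155, adjusted p 9.45e-09). Its neighbour Gm5859 was 14.5, 18.9 and 23.7 CPM in DKO and 106, 116 and 115 CPM in Ogg1-/- (log2FC -2.56, adjusted p 1.57e-08). DKO replicate 3 was the highest of the DKO libraries in these last 3 genes, and still below every Ogg1-/- library.

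The other 4 were chemokine genes or genes with their sequence. Ccl21d was 2.03, 1.34 and 2.02 CPM in DKO and 15.1, 15.0 and 15.6 CPM in Ogg1-/-. Ccl21b was 3.98, 2.62 and 3.47 CPM in DKO and 20.04, 19.9 and 21.6 CPM in Ogg1-/-. For all of Ccl21d, Ccl21b, Gm13304 and Gm10591 the DKO libraries were low and the Ogg1-/- libraries high and close together. Their log2FC were -3.08, -2.61, -2.33 and -2.33, with adjusted p of 1.71e-09, 9.45e-09, 8.2e-09 and 2e-08. Ccl21a, the copy at the end of the array, was 7.87, 6.44 and 5.34 CPM in DKO and 7.498, 7.77 and 7.30 CPM in Ogg1-/-. Here the groups overlapped (log2FC -0.20, SE 0.111, adjusted p 1.00).

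The promoters of 4 of these copies are shown because 3 of the genes were lower in DKO and Ccl21a was not, although the windows are nearly the same. They are from RefSeq on GRCm38.p6, at chr4:41903363-41903662 (Ccl21d, plus strand), chr4:42114537-42114836 (Gm13304, plus), chr4:42611873-42612172 (Gm10591, plus) and chr4:42773942-42774241 (Ccl21a, minus), each 300 bases written 5′ to 3′ along the gene's strand, and capitals mark the positions at which the 4 differ.
Ccl21d: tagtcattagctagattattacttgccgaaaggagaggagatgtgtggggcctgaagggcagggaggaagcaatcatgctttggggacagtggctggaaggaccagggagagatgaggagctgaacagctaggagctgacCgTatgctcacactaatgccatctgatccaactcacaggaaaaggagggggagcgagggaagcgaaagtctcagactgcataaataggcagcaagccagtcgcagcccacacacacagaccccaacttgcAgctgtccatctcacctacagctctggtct
Gm13304: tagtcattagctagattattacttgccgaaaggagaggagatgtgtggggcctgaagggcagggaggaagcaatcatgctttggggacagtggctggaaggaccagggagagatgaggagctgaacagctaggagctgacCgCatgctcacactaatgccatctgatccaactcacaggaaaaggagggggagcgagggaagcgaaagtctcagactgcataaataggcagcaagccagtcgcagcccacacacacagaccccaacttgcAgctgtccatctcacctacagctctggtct
Gm10591: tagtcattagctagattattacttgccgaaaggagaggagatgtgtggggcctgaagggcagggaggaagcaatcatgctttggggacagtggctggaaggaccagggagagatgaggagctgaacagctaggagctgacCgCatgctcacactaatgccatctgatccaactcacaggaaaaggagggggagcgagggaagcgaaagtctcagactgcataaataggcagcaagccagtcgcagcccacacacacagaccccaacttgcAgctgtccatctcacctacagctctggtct
Ccl21a: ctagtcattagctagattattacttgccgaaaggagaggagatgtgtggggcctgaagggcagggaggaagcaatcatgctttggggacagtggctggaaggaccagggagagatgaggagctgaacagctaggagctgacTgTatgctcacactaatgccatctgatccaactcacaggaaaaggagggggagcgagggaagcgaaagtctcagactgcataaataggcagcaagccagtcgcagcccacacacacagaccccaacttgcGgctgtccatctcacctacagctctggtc
The windows of Gm13304 and Gm10591 differed at 0 of 300 bases, and Ccl21d differed from either at 1 of 300. Over the 299 bases that all 4 windows cover, Ccl21a differed from Ccl21d at 2 bases and from Gm13304 and Gm10591 at 3. The 5 motifs named for Mutyh had 0 matches in each of the 4 windows. Of the 28 DEGs in this stretch with a transcript in the reference, 26 shared at least 1 window of 100 bases with another gene and 25 shared over 50% of their windows, with a median of 83.2%. The level of a copy here therefore depends on how reads that fit several copies were assigned, which the deposited description does not state.

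Within the same stretch, genes without copies also differed. Cntfr, which encodes the receptor subunit for ciliary neurotrophic factor, was 46.3, 56.0 and 60.2 CPM in DKO and 103, 91.0 and 88.2 CPM in Ogg1-/-. Spaar, which encodes a small membrane polypeptide, was 1.37, 1.57 and 1.61 CPM in DKO and 2.77, 2.38 and 2.57 CPM in Ogg1-/-. In both genes, which share 0% of their windows with other genes, every DKO library was below every Ogg1-/- library (log2FC -0.79 and -0.76, adjusted p 0.00195 and 0.00474). They were singled out after their values were seen. Il11ra1, which lies beside Cntfr, was level (log2FC 0.04, adjusted p 1.00), and Il11ra2 had a log2FC of -0.73 with an adjusted p of 0.117, which ran from 0.0041 to 0.446 over the alternatives and was under 0.05 with DESeq2, with the likelihood ratio test, with no filter and without DKO replicate 3. Among all 29 DEGs the log2FC ran from -4.20 (Gm10600) to -0.55, with a median of -1.66. Gm10599, which has no position in the annotation, was 5.24, 6.32 and 23.1 CPM in DKO and 223, 249.8 and 255 CPM in Ogg1-/- (log2FC -4.38, adjusted p 9.72e-06), with DKO replicate 3 again the highest of its group.

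Around Mutyh the DEGs were unlike in function. Trabd2b, which encodes a membrane protease that acts on Wnt proteins and lies 2.40 Mb before Mutyh, was 14.04, 13.4 and 15.6 CPM in DKO and 46.8, 50.2 and 44.6 CPM in Ogg1-/-. The noncoding gene 1700057H15Rik, 7.61 Mb after Mutyh, was 20.4, 23.6 and 12.3 CPM in DKO and 1.54, 1.81 and 1.70 CPM in Ogg1-/-. Every DKO library was lower for Trabd2b and higher for 1700057H15Rik (log2FC -1.71 and 3.47, SE 0.0944 and 0.238, adjusted p 3.27e-08 and 4.81e-07). Elovl1, which encodes an enzyme that lengthens saturated fatty acids and lies 1.62 Mb after Mutyh, was 1.28, 1.51 and 2.09 CPM in DKO and 5.34, 5.30 and 4.504 CPM in Ogg1-/- (log2FC -1.62, adjusted p 3.37e-04). Rab3b, a small GTPase of secretory vesicles 7.93 Mb before Mutyh, was 5.90, 5.87 and 7.73 CPM in DKO and 13.5, 11.6 and 12.5 CPM in Ogg1-/- (log2FC -0.94, adjusted p 2.6e-04). Skint11, of a gene family named for the selection and upkeep of skin T cells, was 2.84, 2.96 and 2.56 CPM in DKO and 4.75, 5.04 and 5.799 CPM in Ogg1-/- (log2FC -0.90, adjusted p 2.06e-04). None of these groups overlapped.

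The other 3 higher DEGs near Mutyh lie close to 1700057H15Rik and were almost silent in Ogg1-/-. Over the 3 libraries of a group, Gm12916 had 115 counts in DKO and 5 in Ogg1-/-, 1700021L23Rik had 238 and 7, and 4933435F18Rik had 101 and 2. In CPM, Gm12916 was 0.577, 0.632 and 0.320 in DKO and 0, 0.0314 and 0.0225 in Ogg1-/-, and DKO replicate 3 was the lowest of its group in all of them. Their adjusted p were 6e-05, 6e-05 and 8.51e-05. In the opposite direction Skint1 had 3 counts in DKO and 99 in Ogg1-/- (adjusted p 4e-04). The remaining DEGs near Mutyh were Gm12802 (log2FC -1.86, adjusted p 0.00107), Ebna1bp2, a ribosome assembly factor (-0.55, 0.00474), Med8, a Mediator subunit (-0.55, 0.014), and Ndufs5, a subunit of respiratory complex I (-0.53, 0.0239).

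Ndufs5 was 4.21, 4.35 and 4.67 CPM in DKO and 7.003, 6.02 and 6.13 CPM in Ogg1-/-, so the groups did not overlap, but its call and that of Med8 were not stable. Med8 lost it without DKO replicate 1 or 2 or without Ogg1-/- replicate 1 or 2, with an adjusted p between 4.02e-05 and 0.107 over the alternatives, and Ndufs5 lost it without DKO replicate 1 or 2 or without Ogg1-/- replicate 1, 2 or 3, with an adjusted p between 2.43e-04 and 0.174. A pseudogene of Ndufs5 on chromosome 16, Ndufs5-ps, was 3.00, 3.28 and 1.64 CPM in DKO and 0.885, 0.513 and 0.450 CPM in Ogg1-/- (log2FC 2.13, adjusted p 6.04e-04). The parent gene was thus lower and the copy higher in DKO.

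**Figure D4:**
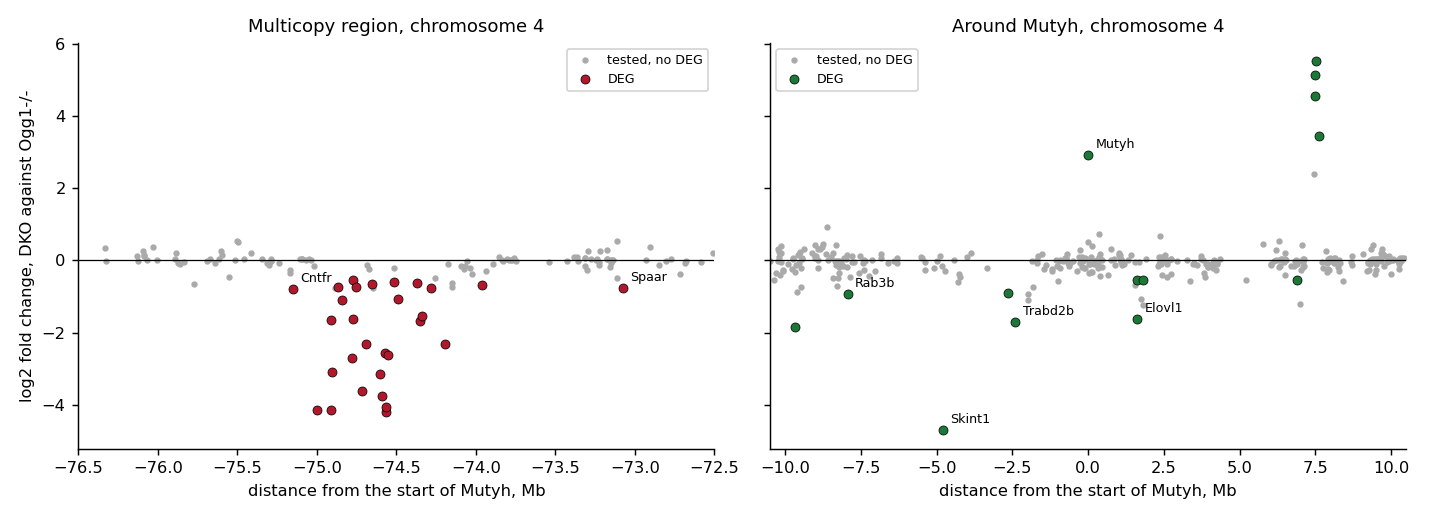
Log2FC of DKO over Ogg1-/- against distance from the start of Mutyh in Mb, for the multicopy stretch of chromosome 4 (left) and for 10 Mb on each side of Mutyh (right), with DEGs coloured. All 29 DEGs on the left lie below 0, and the 14 on the right are spread over the window with 5 above 0 and 9 below.

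The same labelled loss of Mutyh can be read without the Ogg1-/- label, as Mutyh-/- against WT, which shares no library with DKO against Ogg1-/-. That comparison had 129 DEGs (0.428% of the same 30132 genes), 89 higher and 40 lower. Both lists held 38 genes, 58.5% of the 65 and 29.5% of the 129, and 18 of the 38 had the same direction and 20 the opposite. The 129 rested on single libraries (837 without Mutyh-/- replicate 3, 410 higher and 427 lower, and 68, 75, 63, 62 and 91 without Mutyh-/- replicate 1 or 2 or WT replicate 1, 2 or 3, so that the shared count ran from 32 without WT replicate 2 to 41 without Mutyh-/- replicate 3). A test of the difference between the log2FC of the contrasts called 48 genes at an adjusted p under 0.05 (0.159% of those tested), of which 8 were above 0 and 40 below. Without DKO replicate 3 this count was 109.

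The sides of that split followed position. Of the 14 DEGs near Mutyh, 12 were DEGs in Mutyh-/- against WT too, all in the same direction, 14 of 14 had the same sign, and 0 differed between the contrasts by the edgeR test. Across these 14 genes, which are neighbours and not independent, the correlation of the log2FC values was 0.996. Trabd2b had a log2FC of -1.71 on the Ogg1-null background and -1.72 on the WT background, and Mutyh had 2.93 and 3.15 (difference -0.22, adjusted p 0.809). 1700057H15Rik had 3.47 and 4.16 (difference -0.69, adjusted p 0.636), and Elovl1 had -1.62 and -0.9995 (difference -0.62, adjusted p 0.615).

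In the chromosome 4 stretch between 41 and 44 Mb, 17 of the 29 DEGs were DEGs in Mutyh-/- against WT, all 17 higher there and lower in DKO against Ogg1-/-, and 28 of 29 had a log2FC above 0 in Mutyh-/- against WT. Of the 29, 26 differed between the contrasts at an adjusted p under 0.05 by the edgeR test. The 29 were picked by their DKO against Ogg1-/- difference, which is part of the quantity tested, so this count is a description. Gm13307 was 83.3, 79.1 and 78.6 CPM in WT and 111, 112 and 119 CPM in Mutyh-/- (log2FC 0.51), against -1.66 on the Ogg1-null background (difference -2.16, adjusted p 6.71e-10). Gm13303 had 1.33 on the WT and -2.70 on the Ogg1-null background (difference -4.03, adjusted p 6.71e-10), and Gm17167 had 1.95 and -3.16 (difference -5.12, adjusted p 1.76e-09). Mutyh-/- libraries were thus above WT, and DKO libraries below Ogg1-/-, in the same genes.

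**Figure D5:**
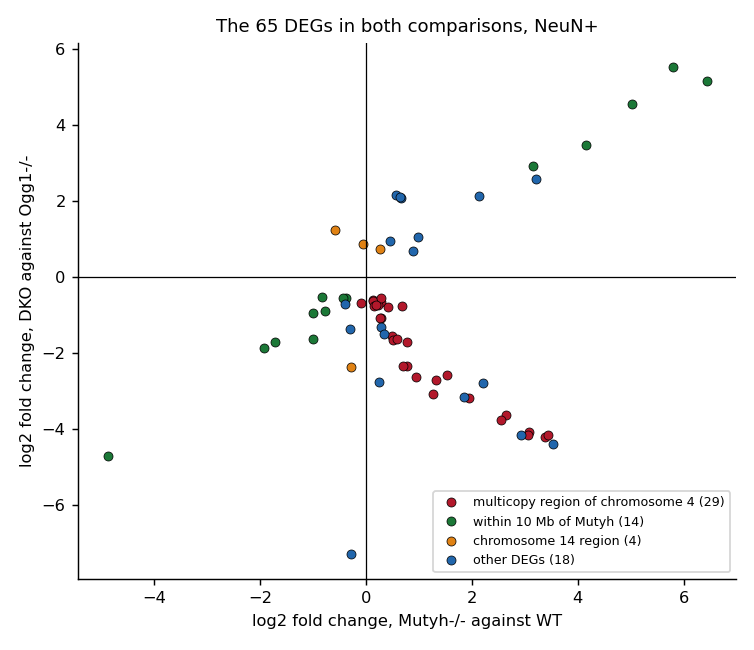
Log2FC of the 65 DEGs in Mutyh-/- over WT (horizontal axis) and in DKO over Ogg1-/- (vertical axis), in NeuN+ nuclei, coloured by place. The 14 DEGs near Mutyh lie along the diagonal, and 28 of the 29 DEGs between 41 and 44 Mb of chromosome 4 lie right of 0 and below 0.

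The chromosome 14 DEGs were Rcbtb2, Esd, Lacc1 and Gm49200, a group singled out after the values were seen. Rcbtb2, which encodes a protein related to a chromatin-bound exchange factor, was 48.9, 55.7 and 44.4 CPM in DKO and 29.2, 29.8 and 29.4 CPM in Ogg1-/-. Esd, which encodes a hydrolase that clears formaldehyde adducts of glutathione, was 8.17, 8.57 and 6.47 CPM in DKO and 4.33, 4.61 and 3.82 CPM in Ogg1-/-. Gm49200 was 0.901, 0.856 and 2.03 CPM in DKO and 6.13, 6.69 and 6.78 CPM in Ogg1-/-. DKO libraries were higher for the first 2 genes and lower for Gm49200, with no overlap (log2FC 0.75, 0.86 and -2.36, adjusted p 1.11e-05, 0.0017 and 2.38e-05), and DKO replicate 3 was nearest to Ogg1-/- in all 3. Lacc1 had a log2FC of 1.24 (adjusted p 0.014), a call it lost without DKO replicate 1 or 2 or any 1 Ogg1-/- library (adjusted p from 2.85e-06 to 0.0992 over the alternatives). Rb1, which overlaps Rcbtb2 and encodes the retinoblastoma protein, was 97.4, 104 and 91.9 CPM in DKO and 71.1, 72.4 and 73.9 CPM in Ogg1-/- and passed the test below the fold limit (log2FC 0.43, adjusted p 8.28e-04). In WT, Esd was 8.97, 9.10 and 8.98 CPM and Rcbtb2 was 47.1, 46.4 and 49.4 CPM, so the DKO libraries lay nearer to WT than the Ogg1-/- libraries did. In Mutyh-/- against WT 0 genes of this stretch were DEGs.

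Several of the higher DEGs lay outside chromosome 4. Gm3952, which lies inside the coiled-coil gene Ccdc7a on chromosome 8 and shares its sequence, was 10.4, 14.2 and 10.9 CPM in DKO and 2.77, 2.66 and 2.73 CPM in Ogg1-/-. Ccdc7a itself was 17.6, 20.4 and 17.97 CPM in DKO and 9.75, 9.12 and 10.1 CPM in Ogg1-/-. Gm5535, on chromosome 2, was 12.1, 15.9 and 12.7 CPM in DKO and 4.00, 3.05 and 2.69 CPM in Ogg1-/-. In all 3 genes the Ogg1-/- libraries were the low ones, with log2FC of 2.12, 0.95 and 2.08 and adjusted p of 5.55e-08, 1.31e-06 and 4.52e-07. In WT the means were 9.63 ± 1.15, 16.6 ± 0.713 and 11.4 ± 0.981 CPM (SD, n = 3), again nearer to DKO than to Ogg1-/-. The noncoding gene 9130204K15Rik, on chromosome 11, was 2.65, 2.99 and 2.55 CPM in DKO and 1.14, 1.31 and 1.44 CPM in Ogg1-/- (log2FC 1.06, adjusted p 3.7e-04), and here WT was at 1.36 ± 0.174 CPM and Mutyh-/- at 2.69 ± 0.175 CPM (SD, n = 3), so the libraries labelled as Mutyh-null were the high ones on both backgrounds.

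On chromosome 7, Kirrel2, which encodes a cell adhesion protein of the nephrin group, was 0.873, 0.737 and 0.726 CPM in DKO and 1.80, 2.15 and 2.08 CPM in Ogg1-/-, and its neighbour Arhgap33os, an antisense transcript, was 0.113, 0.118 and 0.123 CPM in DKO and 0.5999, 0.807 and 0.991 CPM in Ogg1-/-. Both were lower in each DKO library (log2FC -1.37 and -2.75, adjusted p 1.42e-04 and 2.95e-05). The other DEGs elsewhere were Gm43041 (log2FC 2.16), Gm12576 (2.58) and Myo1f, a myosin of immune cells (0.68), which were higher, and Cfap99 (-0.69), Cyp2b19 (-1.51), Zfp988 (-1.30), Gm48348 and Gm14590, which were lower. Their adjusted p ran from 0.00648 (Gm43041) to 0.0415 (Zfp988), and none of these 8 calls was stable. Gm43041 lost its call without DKO replicate 2 (adjusted p 0.0517). The other 7 lost theirs without DKO replicate 1 or 2 or Ogg1-/- replicate 2 or 3, and some without DKO replicate 3 or Ogg1-/- replicate 1 as well, with an adjusted p up to 0.164 for Gm12576 and 0.281 for Zfp988, which also lost it with DESeq2. Gm48348 had 10 counts in DKO and 80 in Ogg1-/-, and Gm14590 had 0 counts in DKO and 68 in Ogg1-/- over the 3 libraries of each group. Gm12576 was 16.7, 17.1 and 2.92 CPM in DKO and 1.99, 2.34 and 1.78 CPM in Ogg1-/-, so that DKO replicate 3 was close to Ogg1-/-.

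Mid1, an X-linked gene for a ubiquitin ligase, was level in this contrast and not in the other. It was 13.4, 13.2 and 15.7 CPM in DKO, 13.4, 13.9 and 12.8 CPM in Ogg1-/-, 14.8, 14.9 and 13.5 CPM in Mutyh-/- and 63.6, 74.0 and 68.0 CPM in WT. Only the WT libraries stood high. The log2FC was 0.08 (adjusted p 1.00) for DKO over Ogg1-/- and -2.25 for Mutyh-/- over WT, and the difference of 2.33 had an adjusted p of 4.46e-09.

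In NeuN- nuclei the same genotypes gave 42 DEGs of 31863 genes tested (0.132%), 9 higher and 33 lower (28 and 39 with DESeq2, and 30 and 39 with the likelihood ratio test). Of these, 31 were among the 65, 47.7% of the NeuN+ list and 73.8% of the NeuN- list, all in the same direction. The paper sorted both fractions from pooled suspensions, so the fractions may share animals and the lists may not be independent. Of the 60 NeuN+ DEGs tested in NeuN- nuclei 55 had the same sign. In the chromosome 4 stretch 22 of the 29 were DEGs in both fractions and 0 differed between the fractions. Gm13307 had a log2FC of -1.66 in NeuN+ and -2.02 in NeuN- nuclei, and Ccl21d had -3.08 and -3.38. A test of the difference between the fractions called 15 genes of 33523 at an adjusted p under 0.05 (0.0447%), and 4 of the 14 DEGs near Mutyh were among them. Mutyh itself was 7.21, 8.75 and 10.1 CPM in DKO NeuN- and 3.56, 3.51 and 3.19 CPM in Ogg1-/- NeuN- nuclei, so the DKO levels were alike in the fractions while the Ogg1-/- level was higher in NeuN- nuclei (log2FC 1.34 in NeuN- and 2.93 in NeuN+, difference 1.59, adjusted p 4.17e-04). Trabd2b had -1.71 in NeuN+ and 0.23 in NeuN- nuclei, but the difference did not pass (-1.94, adjusted p 0.106).

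The pathway lists are given by their counts and medians, and over all genes tested 50.3% were above 0, 4.26% had an unadjusted p under 0.05 and the median log2FC was 0.0006. Among 11 DNA glycosylases 6 were above 0, with a median log2FC of 0.04, and Mutyh was the only member to pass the test. Neil3, which had the next smallest p, had -0.83 (adjusted p 1.00), and Tdg, the most abundant per length, had 0.05. Among 21 genes that act after the glycosylase 11 were above 0, with a median of 0.00 and 0 passing. Poll and Aplf had the smallest p, with -0.33 and -0.16 (adjusted p 0.938 and 1.00), and Polb, the polymerase that fills the gap and the most abundant per length, had 0.03. The 8 hydrolases that clear oxidized nucleotides had 4 above 0 and a median of 0.00, with Samhd1 at -0.15 and Itpa, the most abundant per length, at 0.03. The 20 partners of Mutyh in mismatch repair and checkpoint signalling had 12 above 0 and a median of 0.02, with Hus1 at -0.16, and Msh3 was the most abundant per length. Of p53 and its targets 22 of 25 were tested, 9 were above 0 and the median was -0.01. Cdkn1a, the cell-cycle inhibitor induced by p53, was 0.352, 0.369 and 0.394 CPM in DKO and 0.585, 0.419 and 0.574 CPM in Ogg1-/-. Its groups did not overlap, but its log2FC of -0.49 had an adjusted p of 1.00. Sesn1 was the most abundant per length of that list.

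Of the antioxidant and glutathione genes 33 of 34 were tested and 15 were above 0, with a median of -0.00 that turned above 0 when libraries were scaled by relative log expression. Gpx1 had -0.34 and Txn1 -0.14, and Msrb2 was the most abundant per length. The 75 nuclear genes of the respiratory chain and ATP synthase had 40 above 0 and a median of 0.00, and Ndufs5 was the member that passed, with Atp5o the most abundant per length. None of the 13 mitochondrially encoded genes was in the table. Cytosolic ribosomal protein genes were above 0 in 61 of 79 (50.3% over all genes), with a median of 0.04 and 0 genes at an unadjusted p under 0.05. Rps3 was the most abundant per length, and the median ran from -0.03 without DKO replicate 2 to 0.12 without DKO replicate 3. Glycolysis and gluconeogenesis genes had 9 of 27 above 0 and a median of -0.02, with Galm at -0.28 and Gpi1 the most abundant per length.

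Polycomb repressive complex 2 places methyl groups on histone H3. Of its 13 listed genes 12 were tested, with 10 above 0 (50.3% over all genes) and a median of 0.04. Ezh2, its catalytic subunit, was 12.5, 12.9 and 13.2 CPM in DKO and 11.9, 11.3 and 10.9 CPM in Ogg1-/-. The groups did not overlap, but its log2FC of 0.18 (unadjusted p 0.0112) had an adjusted p of 0.880. Suz12 had 0.10, and Jarid2 was the most abundant per length. Writers, erasers and readers of DNA methylation were above 0 in 10 of 15, with a median of 0.03, Tet1 at 0.11 and Mbd2 the most abundant per length. In both lists 0 genes passed the test.

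Among genes of neuronal signalling 0 passed. NMDA and AMPA receptor subunits were above 0 in 5 of 11, with a median of -0.00 that turned above 0 with relative log expression scaling, and Gria1 was the most abundant per length. Calcium/calmodulin-dependent kinases were above 0 in 10 of 12 (50.3% over all genes) with a median of 0.05, and Camk2a, the most abundant per length, had 0.07. Immediate early genes were above 0 in 15 of 22 with a median of 0.02, and Homer1 was the most abundant per length. Axon guidance ligands and receptors were above 0 in 33 of 60 with a median of 0.01. Of these 60, 6 had an unadjusted p under 0.05 by the edgeR test (4.26% over all genes), and Slit3 was the most abundant per length. Unc5b, a netrin receptor, was 5.91, 7.005 and 8.35 CPM in DKO and 9.49, 8.76 and 8.997 CPM in Ogg1-/-. All DKO libraries were lower, with a log2FC of -0.35 and an adjusted p of 0.581, which ran from 0.0421 (without DKO replicate 3) to 1.00 over the alternatives. Circadian clock genes were above 0 in 7 of 19 with a median of -0.02, Rorb at -0.23 and Rora the most abundant per length.

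Of the interferon-response genes 18 of 22 were tested, 6 were above 0 and the median was -0.06, with 3 at an unadjusted p under 0.05 (4.26% over all genes) and 0 passing. Epsti1, an interferon-induced gene on chromosome 14, was 0.774, 0.658 and 0.775 CPM in DKO and 1.30, 1.32 and 1.09 CPM in Ogg1-/- NeuN+ nuclei. In NeuN- nuclei it was 16.6, 15.9 and 13.5 CPM in DKO and 8.72, 7.30 and 8.42 CPM in Ogg1-/-. The DKO libraries were the lower in NeuN+ and the higher in NeuN- nuclei, with no overlap in either (log2FC -0.75, adjusted p 0.125, and 0.92, adjusted p 2.75e-04). The adjusted p in NeuN+ nuclei ran from 0.00532 to 0.65 over the alternatives and was under 0.05 with the likelihood ratio test only. Trim30a had -0.34, and Stat2 was the most abundant per length.

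For marker lists the counts of genes above 0 were 5 of 8 for neurons (median 0.01, Syt1 the most abundant per length), 11 of 15 for hippocampal subfields (0.03, Grik4) and 2 of 11 for interneurons (-0.08, Adarb2). Lhx6, a transcription factor of interneurons, had -0.23 with an adjusted p of 0.938, and of the subfield markers Fn1 had -0.35 and Rgs14 0.17. For glia the counts were 0 of 5 for oligodendrocytes (median -0.19, Mbp), 0 of 3 for their precursors (-0.22, Vcan), 0 of 6 for astrocytes (-0.23, Slc1a2) and 2 of 4 tested of 5 for microglia (0.01, P2ry12). Endothelial and pericyte markers were above 0 in 1 of 4 tested of 5 (-0.13, Pdgfrb), choroid plexus markers in 4 of 4 tested of 5 (0.16, Ttr) and Y-linked genes in 1 of 4 (-0.01, Uty). None of these marker genes passed the edgeR test over all genes, and Mag, at -0.47 with an unadjusted p of 0.0402, Lhx6, Fn1 and Rgs14 were the members at an unadjusted p under 0.05. With only the 2 genotypes fitted Fn1 had an adjusted p of 0.0326. Several medians turned in sign when 1 library was left out. That of the astrocyte markers became 0.02 without Ogg1-/- replicate 1 and that of the choroid plexus markers -0.06 without DKO replicate 3. Without DKO replicate 3 the medians of the DNA glycosylases, the immediate early genes and the glycolysis genes became -0.04, -0.04 and 0.02, and without Ogg1-/- replicate 2 that of the calcium/calmodulin-dependent kinases became -0.00. Every list with a median given as -0.01 to 0.02 turned sign without at least 1 of the 6 libraries. In all of these fits the medians of Polycomb repressive complex 2, DNA methylation and hippocampal subfields stayed above 0. Those of the circadian clock, interferon, interneuron, oligodendrocyte, oligodendrocyte precursor, and endothelial and pericyte lists stayed below 0.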

How the data were processed

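The values used were counts as the authors deposited them, 1 table for NeuN+ and 1 for NeuN- nuclei, with 55254 genes each. Upstream, the authors' description names FastQC 0.11.9, HISAT2 2.1.0, SAMtools 1.10, featureCounts, R 4.3.2 and edgeR 3.42.4 on GRCm38. How strand, reads that fit several places and overlapping genes were handled is not stated.

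Here R 4.3.3 with edgeR 4.0.16 and limma 3.58.1 was used. Genes with low counts were removed by the default filter of edgeR, libraries were scaled by TMM, and genotype was fitted over all 12 NeuN+ libraries with the quasi-likelihood test, so that the spread was shared by the 4 genotypes. In NeuN+ nuclei the common biological coefficient of variation was 0.0823, and in NeuN- it was 0.124. Differences between contrasts were tested in the same fit, and those between fractions in a fit of all 24 libraries. p-values were adjusted by Benjamini-Hochberg over all genes tested. DESeq2 1.42.0 served as an alternative. Tables and figures were made in Python 3.11 with pandas 2.3.3, scipy 1.17.1 and matplotlib 3.10.9. Positions were matched by symbol, with 29771 of 30132 tested genes placed. Pseudogenes and other gene classes, and transcript sequences, came from GENCODE or RefSeq for GRCm38.

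The genes named are Ogg1 and Mutyh, the 10 DEGs per direction with the smallest p whose libraries did not overlap, DEGs within 10 Mb of Mutyh or Ogg1, in each list the members that passed, the 2 with the smallest p and the most abundant per length, and up to 3 genes per test of a difference. Other genes in the text were picked with their values already in view. The members and the lists were chosen with earlier results of these data known. The lists are those of the report, from DNA glycosylases to cell type markers, and a list is given by its counts and median beside those of all genes.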

Additional observations from a re-analysis of the deposited data

Results flagged for a closer look

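The difference between DKO and Ogg1-/- was tested for whether it differed between NeuN+ and NeuN- nuclei, by an interaction term in the edgeR quasi-likelihood fit of all 24 libraries taken as unpaired, and 9 of the genes named had an adjusted p under 0.05. Values are log2FC in NeuN+ minus log2FC in NeuN- nuclei. Higher in NeuN+ than in NeuN- nuclei were 1700057H15Rik at 1.74 (adjusted p 0.0488), Mutyh at 1.59 (4.17e-04), Gm5535 at 1.52 (0.00318), Gm3952 at 1.5 (5.1e-04) and 9130204K15Rik at 0.95 (0.00347). Lower were Arhgap33os at -2.69 (8.63e-04), Elovl1 at -1.68 (0.00138), Epsti1 at -1.66 (4.96e-05) and Skint11 at -0.85 (0.0261).

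In Epsti1 the directions were opposite, with 3 of 3 DKO libraries lower than Ogg1-/- in NeuN+ and 3 of 3 higher in NeuN- nuclei. Elovl1 was 13.1, 11.8 and 9.61 CPM in DKO and 11.8, 10.54 and 10.9 CPM in Ogg1-/- NeuN- nuclei, where the groups overlapped. Arhgap33os was 0.243, 0.216 and 0.211 CPM in DKO and 0.233, 0.276 and 0.189 CPM in Ogg1-/- NeuN- nuclei, which overlapped too. Of the 9, 7 kept an adjusted p under 0.05 whichever of the 12 DKO and Ogg1-/- libraries was left out. 1700057H15Rik lost it in 10 of the 12 fits (adjusted p up to 0.211) and Skint11 in 8 (up to 0.112). Under the replicate block described below, 8 of the 9 had an adjusted p under 0.05, and Skint11 had 0.118. The fractions were sequenced on different lanes, and the part of lane in these differences cannot be told apart from that of the fraction.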

How the results depend on the processing

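The 65 DEGs of DKO against Ogg1-/- in NeuN+ nuclei numbered 73 with the DESeq2 Wald test, 65 with relative log expression scaling, 94 with the edgeR likelihood ratio test, 96 with no filter on low counts, 56 with at least 10 counts in every library, 58 with only the 2 genotypes fitted, 76 with no fold limit, 45 at an absolute log2FC above 1, and 47 without genes within 10 Mb of Mutyh or Ogg1. Leaving out 1 library gave from 52 (DKO replicate 2) to 73 (DKO replicate 3). In alternatives chosen after seeing the data, genes were taken out before the fit, so that fewer were tested: the count was 31 without the chromosome 4 stretch between 41 and 44 Mb, 16 without that stretch and genes within 10 Mb of Mutyh or Ogg1, and 16 without chromosome 4. Of the 65 DEGs, 52 had an adjusted p under 0.05 in every alternative that gave a value, 13 did not in at least 1, and 0 turned in sign. The filter of 10 counts left out 9 of them.

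The 42 DEGs in NeuN- nuclei were 67 with DESeq2, 69 with the likelihood ratio test, 25 with only the 2 genotypes fitted and 27 at an absolute log2FC above 1, and from 30 to 52 on leaving out 1 library. The 15 genes that differed between the fractions were from 10 to 21 on leaving out 1 library. The 48 genes that differed between DKO against Ogg1-/- and Mutyh-/- against WT were 116 with no filter on low counts, and from 39 to 109 on leaving out 1 library, the highest without DKO replicate 3. The 129 DEGs of Mutyh-/- against WT were 366 with DESeq2, 564 with the likelihood ratio test, 625 with no filter, 272 with only the 2 genotypes fitted and 63 at an absolute log2FC above 1, and from 62 (without WT replicate 2) to 837 (without Mutyh-/- replicate 3). A higher fold limit leaves fewer genes by its construction, and for the other counts that moved the cause was not tested. The balance of directions moved with some counts. DKO against Ogg1-/- had 16 DEGs higher and 49 lower, but 10 higher and 6 lower without chromosome 4, where the genes taken out were mostly lower, and Mutyh-/- against WT had 89 higher and 40 lower, but 410 and 427 without Mutyh-/- replicate 3 and 321 and 243 with the likelihood ratio test. With no filter on low counts DKO against Ogg1-/- had 36 higher and 60 lower. In NeuN- nuclei the 9 higher and 33 lower were 28 and 39 with DESeq2, 30 and 39 with the likelihood ratio test, and 17 and 35 both with no filter and, in another fit, without DKO replicate 3.

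The 3 library measures whose groups did not overlap were from 3 to 7 on leaving out 1 library, which was tried after seeing the data: 5 without DKO replicate 1 and 7 without Ogg1-/- replicate 2, where fewer samples make separate groups more common.

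A replicate block, which fits a term for the replicate number within a fraction and a term for each genotype and number across the fractions, gave 60 DEGs in NeuN+ nuclei, 38 in NeuN- nuclei, 12 genes that differed between the fractions, 47 that differed between the contrasts and 113 DEGs in Mutyh-/- against WT. In the pairing check, DKO and Ogg1-/- NeuN+ libraries of the same number had correlations of -0.109, 0.0832 and -0.0573 in their deviations from the group means. These values show no steady likeness by number between these genotypes. With 3 libraries a group they cannot tell whether libraries of the same number shared a batch. Within a genotype, the correlations of a NeuN+ library with the NeuN- library of its number were 0.165, 0.137 and 0.227 in DKO and 0.167, 0.0409 and 0.337 in Ogg1-/-, so that 5 of 6 libraries correlated best with their own number and Ogg1-/- replicate 2 did not. In the paper's sorting methods both fractions were collected from a pooled suspension. The labels do not say that libraries of the same number come from the same animals, and the tests between fractions took them as unpaired. Under the block 8 of 9 genes named for a difference between the fractions had an adjusted p under 0.05, and Skint11 had 0.118.

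Limits. With 3 libraries a group, an exact permutation test cannot go below 0.10, and the calls rest on a spread shared across genotypes. Genes at a few counts, such as Skint1 and Gm14590, give no stable fold at this depth. How reads that fit several copies were assigned is not stated, so the level of a copy that shares sequence is uncertain. Pooling of animals is unclear, so the spread may be less than that between mice. Counts summed over a gene show neither the allele nor the exons. Genotype and mouse line cannot be told apart in any comparison of genotypes here.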

Other observations

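Some values were alike in libraries of the same number within a genotype. Gm47283, on the Y chromosome, was 42.7, 55.8 and 10.54 CPM in the Ogg1-/- NeuN+ libraries 1, 2 and 3 and 46.2, 56.5 and 12.8 CPM in the Ogg1-/- NeuN- libraries of the same numbers. Replicate 3 was the low library in both fractions. All DKO libraries lay above these, at 101, 89.4 and 122 CPM in NeuN+ (log2FC 1.52, adjusted p 0.276) and 96.1, 86.9 and 123 CPM in NeuN- nuclei, and all WT NeuN+ libraries lay higher still, at 254, 310 and 262 CPM. Gm21451 was 2.30, 2.03 and 39.8 CPM in DKO NeuN+ and 7.75, 8.91 and 79.2 CPM in DKO NeuN- libraries, with replicate 3 high in both fractions. In NeuN+ nuclei it was 144, 105 and 156 CPM in Mutyh-/-, 2.23, 2.76 and 2.23 CPM in WT and 2.43, 2.57 and 3.34 CPM in Ogg1-/-. Gm40884 did not follow the numbers: it was high in DKO NeuN+ replicate 3 (37.8 CPM) and in Mutyh-/- NeuN- replicate 3 (49.2 CPM) and under 0.5 CPM in every other library.

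DKO NeuN- replicate 3 had 142 genes with at least 5 counts where each of the other 11 NeuN- libraries had at most 2, of which 29 lie on the Y and 11 on the X chromosome, and together they held 999 counts. These values were noticed after the data were seen, and no cause was tested.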
